A study of Caenorhabditis elegans with 2 samples.

Results

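The genes described here are 40 protein-coding genes of Caenorhabditis elegans, listed by name, that encode germ granule proteins and regulators of maternal RNA, egg surface proteins and the MES chromatin proteins. They are 40 of 19973 protein-coding genes on the nuclear chromosomes, and all 40 names were found in the annotation. They were examined for binding by HMG-1.2, a protein with HMG boxes, which bind and bend DNA. Chromatin immunoprecipitation followed by sequencing (ChIP-seq), which recovers the DNA attached to a protein, had been carried out on whole young adults 65 h old of strain RW12210. In this strain hmg-1.2 on chromosome III carries a TY1, EGFP and 3xFLAG tag inserted by CRISPR. The labels give an anti-GFP antibody in one field and hmg-1.2 in another. There was 1 group with 2 samples, numbered as biological replicates 1 and 2, so no conditions were compared and no test between groups was possible. The animals had been synchronised by bleaching and by starvation at the first larval stage. Whole animals pool germline and somatic nuclei, so the tissue of a peak is not known, and binding in fewer cells cannot be told apart from weaker binding in each cell.

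Germ granules, called P granules in this animal, are condensates of RNA and protein that lie at the nuclear envelope of germ cells and pass to the germline precursors in the early embryo. Oocytes load the embryo with messenger RNAs whose translation is held back or released by RNA-binding proteins, which sets where and when cell fate proteins appear. The MES proteins modify histones and maintain germline chromatin. Most of these genes are known for expression in the adult germline or in oocytes.

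A gene was called bound where a peak's summit, its highest point, fell in a promoter window around a 5′ end. This window reached 500 bp upstream and 100 bp downstream of each annotated 5′ end of the gene. Distances below are from the annotated 5′ end to the summit, negative when upstream. The authors' conservative peak set (4149 peaks), deposited for the series as a whole, is the main set. Signal is the authors' value for a peak, whose scale the labels leave unstated, and rank 1 is the highest signal in a list. Each replicate also has its own thresholded list, of 3340 peaks in replicate 1 and 5333 in replicate 2. Sequencing depth is unknown for all of them. Wider ranked lists hold further peaks below the threshold, 1 for each replicate and 1 that contains every conservative peak. The last belongs to neither sample and is called here the ranked list over both replicates. Where a window held more than 1 peak of a list, the values are those of the peak of highest signal, unless stated.

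Of the 40 genes, 16 (40%) were bound in the conservative set, against a background of 9.68% of all protein-coding genes (1934 of 19973). Replicate 1's own list bound 11 (27.5%), with a background of 6.91%, and replicate 2's list bound 21 (52.5%), with a background of 13.3%. The share over the replicates was 40% ± 17.7 (SD, n = 2) for these genes and 10.1% ± 4.50 (SD, n = 2) for all protein-coding genes. The lists of both replicates bound 11 of the genes (27.5%), with a background of 6.10%. These are pgl-3, meg-3, meg-4, pos-1, mex-1, spn-4, oma-2, puf-11, egg-1, rme-2 and mes-3. No gene of the 40 was bound in replicate 1's list alone, where 162 of all protein-coding genes were (0.811%). With a share that low, finding none among 40 genes does not set them apart. In replicate 2's list alone 10 of the 40 were bound, against 1432 of all protein-coding genes (7.17%). The names were chosen with results of these data known, so these shares are a description and carry no test.

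The window and the assignment rule moved some genes in or out. A window of 250 bp upstream and 50 bp downstream left 11 genes bound (background 6.07%), without pgl-3, pos-1, mex-3, mex-5 and oma-2, whose summits lie farther upstream. Widening it to 1000 bp on the upstream side and 200 bp on the other bound 17 (background 12.7%), with cgh-1 added. Assigning each summit to the nearest 5′ end only bound 15 (background 8.05%), without mex-5, and using the outermost 5′ end only bound 15 (background 8.84%), without mex-3. Requiring that a conservative peak overlap a peak in both replicates' lists left 11 (background 6.08%). Adding the 24 ranked peaks with a passing score that the conservative set lacks left the count at 16 (background 9.70%). In the authors' other thresholded set 23 were bound (57.5%, background 13.7%), without puf-3 and with pgl-1, glh-4, deps-1, gld-2, egg-2, egg-3, cbd-1 and mes-6 added.

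**Figure D1:**
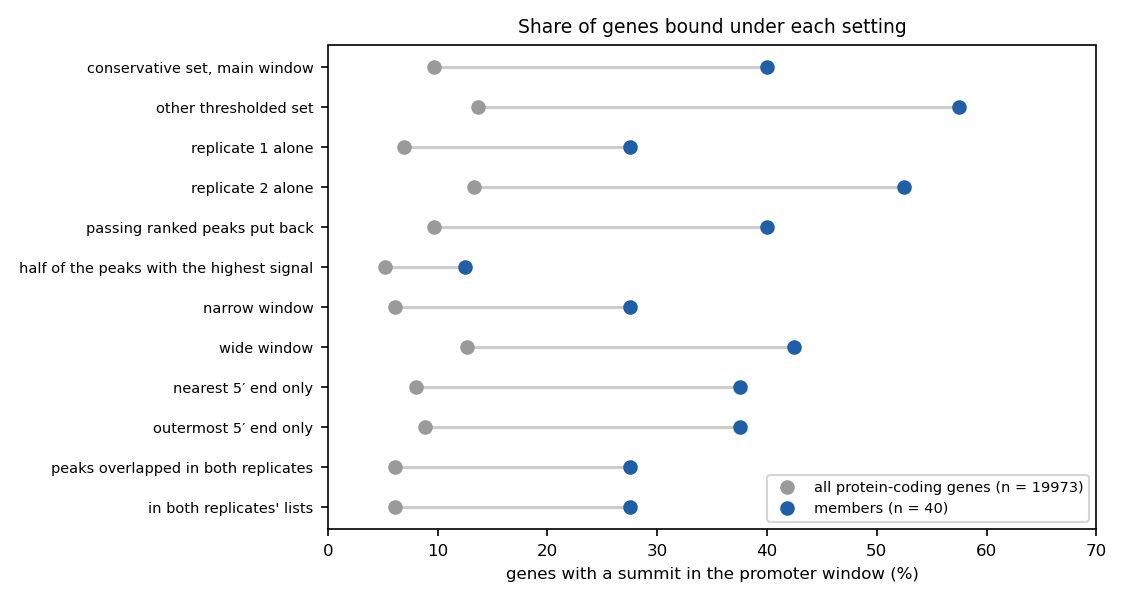
Percent of genes with a summit in the promoter window (horizontal axis) for the 40 genes (blue) and for all 19973 protein-coding genes (grey), under each peak set, window or assignment rule. The blue point lies to the right of the grey point in every setting shown, from 12.5% against 5.19% with the 2074 peaks of highest signal to 57.5% against 13.7% with the authors' other thresholded set.

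The bound genes had peaks of modest height. Their signal ran from 96.9 (puf-3) to 1124 (pos-1), with a median of 208, against 260 over all 1934 bound genes. The median rank, as a percent of the list counted from the highest signal, was 56.0% for the 16 genes and 46.6% over all bound genes. In replicate 1 these values were 61.3% and 45.5%, and in replicate 2 they were 60.2% and 48.8%. Among the 2074 conservative peaks of highest signal, 5 of the 40 genes were bound (12.5%, background 5.19%), namely pos-1, meg-3, mex-1, puf-11 and mes-3.

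**Figure D2:**
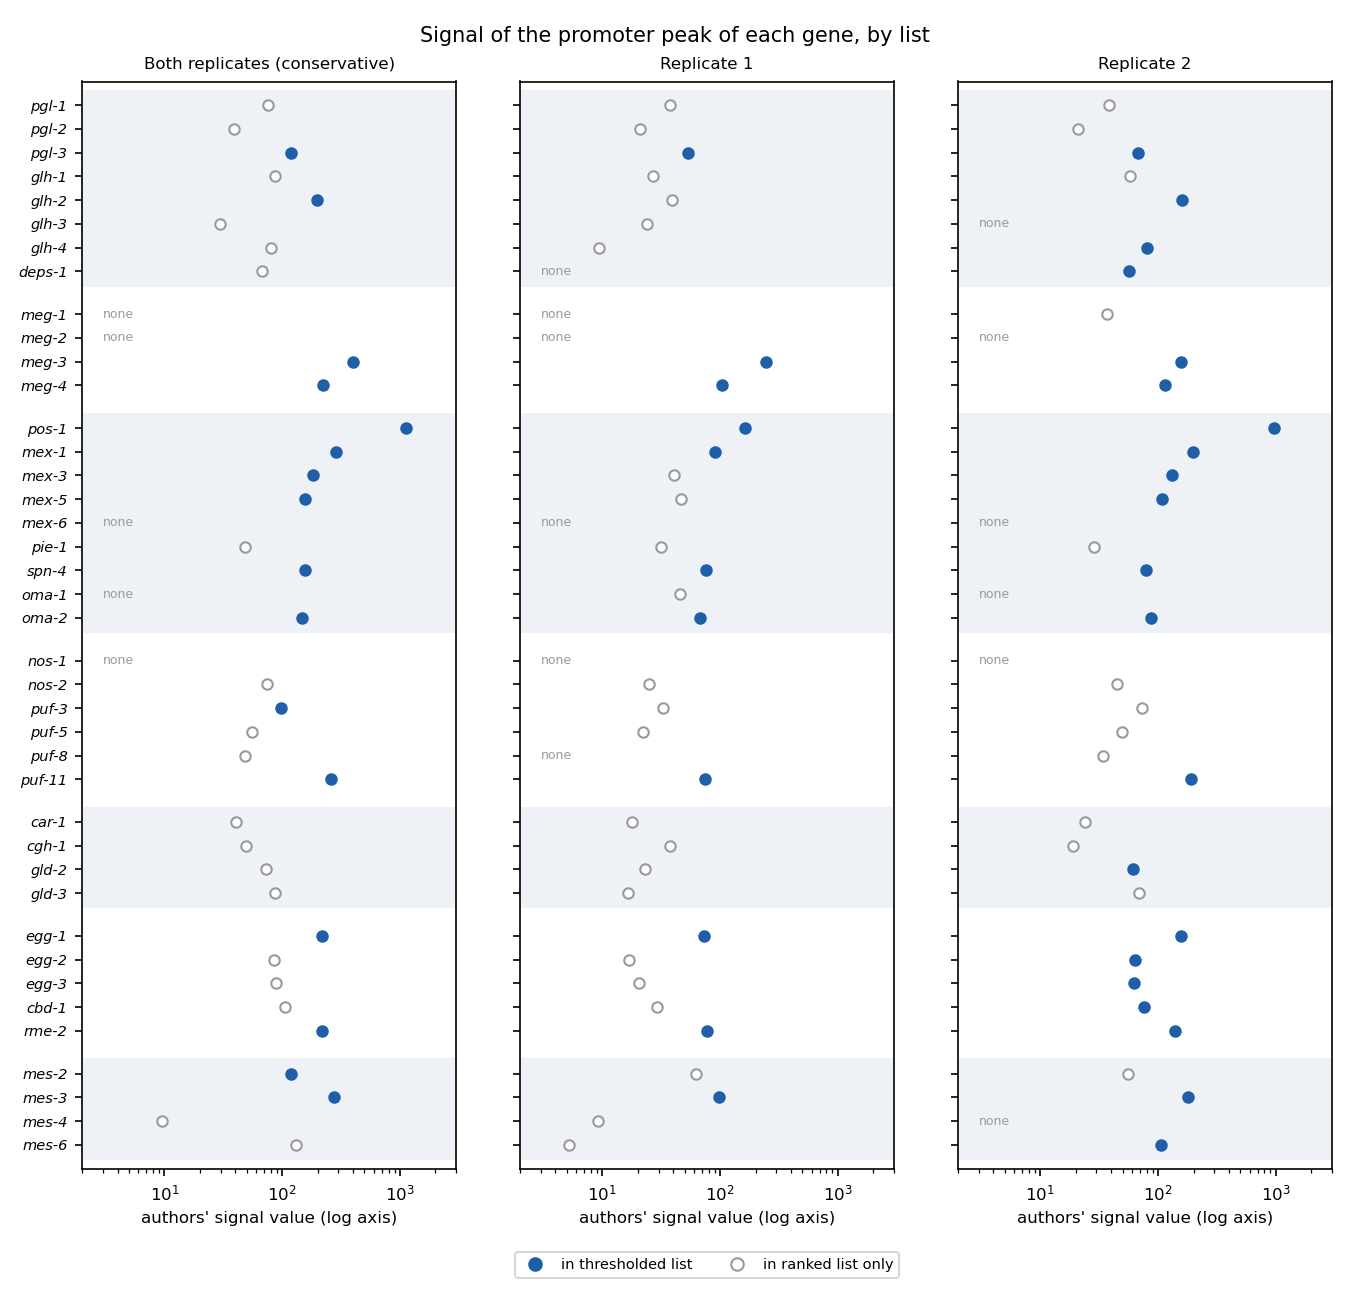
Authors' signal value (log axis) of the strongest promoter peak of each gene in the conservative set, replicate 1 and replicate 2, grouped by role from top to bottom. Filled points are peaks of a thresholded list, open points are peaks of the matching ranked list only, and "none" marks a gene with no listed peak. pos-1 has the highest signal of the 40 genes in the conservative set (1124) and in replicate 2 (968), and meg-3 has the highest in replicate 1 (243). Signal scales of different lists are not compared.

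Sequence was taken from the ce11 genome 50 bp either side of the summit, on the strand of the gene. The first set shows 6 of the 7 genes of highest signal that had a peak in both replicates' lists, since mes-3 is not shown. The summit is the middle base. Capitals mark the words GCGGGAA and GCGCGAA on either strand, which resemble the core that E2F-family factors recognise and are counted further on.
pos-1 (chrV:8413738-8413838, plus strand): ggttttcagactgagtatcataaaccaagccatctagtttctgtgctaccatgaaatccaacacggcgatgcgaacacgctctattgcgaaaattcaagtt
meg-3 (chrX:1989724-1989824, minus strand): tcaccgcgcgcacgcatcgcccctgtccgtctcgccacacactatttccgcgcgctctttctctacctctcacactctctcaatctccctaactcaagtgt
mex-1 (chrII:11968405-11968505, plus strand): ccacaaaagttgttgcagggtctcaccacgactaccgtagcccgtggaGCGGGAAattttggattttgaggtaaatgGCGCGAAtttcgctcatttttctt
puf-11 (chrIV:6421371-6421471, plus strand): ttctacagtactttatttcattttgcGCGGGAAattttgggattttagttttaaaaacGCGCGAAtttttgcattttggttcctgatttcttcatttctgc
meg-4 (chrX:1682718-1682818, plus strand): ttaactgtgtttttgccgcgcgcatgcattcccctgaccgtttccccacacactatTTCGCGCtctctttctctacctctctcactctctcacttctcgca
rme-2 (chrIV:5469906-5470006, plus strand): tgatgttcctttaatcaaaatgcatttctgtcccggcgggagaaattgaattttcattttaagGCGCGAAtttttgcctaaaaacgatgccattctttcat

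Among the genes of maternal RNA-binding proteins that set cell fates, 6 of 9 were bound in the conservative set, 4 of 9 in replicate 1 and 6 of 9 in replicate 2, where the shares of all genes were 9.68%, 6.91% and 13.3%. The gene pos-1 encodes a CCCH zinc finger protein of posterior blastomeres. Its peak had rank 288 with a signal of 1124, and its summit at -298 bp also lay in the window of vha-18, which encodes a proton pump subunit. In replicate 1 the peak of pos-1 had a signal of 163 (rank 871 of 3340) and in replicate 2 a signal of 968 (rank 182 of 5333). The conservative rank of pos-1 lies at 6.94% of the conservative list, and the next of the 16 genes, meg-3, lies at 29.8%.

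The gene mex-1, for another CCCH zinc finger protein needed to restrict germline factors to posterior cells, had a signal of 288, with 90.0 in replicate 1 and 197 in replicate 2. Its summit lay at -182 bp, at -189 bp in replicate 1 and at -183 bp in replicate 2, so the replicates placed it within 6 bp. The gene spn-4, for an RNA-binding protein of the early embryo, had a signal of 156 at -174 bp, with replicate summits 1 bp apart (signal 76.6 and 79.4). That summit also lay in the window of spe-39. The gene oma-2, for a CCCH protein needed with its paralogue OMA-1 for oocyte maturation, had a signal of 148 at -454 bp. Its signal was 68.1 in replicate 1 and 87.3 in replicate 2, and its summits were 9 bp apart.

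Both mex-3 and mex-5 were bound in the conservative set and in replicate 2's list but not in replicate 1's. The gene mex-3 encodes a KH domain repressor of maternal RNAs. Its peak (signal 182, with 131 in replicate 2) lay in an intron of the gene, at -318 bp from a 5′ end inside it. It was lost when only the outermost 5′ end was used. The gene mex-5 encodes a CCCH protein of the anterior of the zygote. Its peak (signal 155, with 107 in replicate 2) lay at -320 bp, in a window shared with rec-8, a meiotic cohesin gene whose 5′ end is nearer. In replicate 1's ranked list both genes had a peak below the threshold, with scores of 368 for mex-3 and 184 for mex-5. This score is the authors' and rests on the irreproducible discovery rate (IDR), a measure of rank agreement between lists. The cap is 1000, and no conservative peak scored under 830.

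Paralogues in this role differed in whether they were bound. MEX-6 acts together with MEX-5 in the zygote, but mex-6 had no peak in its window in any of the ranked lists examined (both replicates together, replicate 1 and replicate 2). For oma-1 the ranked list over both replicates held none, and replicate 1's ranked list held a peak at -221 bp with a score of 204. The gene pie-1, for a CCCH protein that represses transcription in germline blastomeres, had ranked peaks with scores of 45 over both replicates, 67 in replicate 1 and 204 in replicate 2. The next set sets the summit sequences of mex-5 and oma-2 beside the stretch at the same distance from the 5′ end of the paralogue that was not bound, to show both.
oma-2 (chrV:8028935-8029035, plus strand): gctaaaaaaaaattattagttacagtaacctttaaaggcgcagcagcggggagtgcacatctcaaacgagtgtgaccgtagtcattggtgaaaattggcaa
oma-1 (chrIV:8888472-8888572, plus strand): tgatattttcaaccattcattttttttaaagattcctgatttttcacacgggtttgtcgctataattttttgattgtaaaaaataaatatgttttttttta
mex-5 (chrIV:13353353-13353453, plus strand): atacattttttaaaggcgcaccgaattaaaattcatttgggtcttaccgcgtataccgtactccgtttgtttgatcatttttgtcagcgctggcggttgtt
mex-6 (chrII:9523804-9523904, plus strand): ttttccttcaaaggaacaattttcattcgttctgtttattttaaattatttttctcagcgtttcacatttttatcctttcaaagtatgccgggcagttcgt

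GC content was 41.6% in the summit window of oma-2 and 21.8% in the matched stretch of oma-1. It was 40.6% at mex-5 and 31.7% at mex-6. Over the 601 bp promoter windows, neither pair shared any run of 31 identical bases.

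Of the 4 MEG genes, meg-3 and meg-4 were bound in all 3 lists and meg-1 and meg-2 in none. The shares of all genes in the conservative, replicate 1 and replicate 2 lists were 9.68%, 6.91% and 13.3%. MEG-3 and MEG-4 are disordered proteins that build embryonic P granules, and MEG-1 and MEG-2 are related proteins of the same granules. The peak of meg-3 had a signal of 398 (rank 1238), with 243 in replicate 1 and 157 in replicate 2, and a summit at -167 bp. The peak of meg-4 had a signal of 223, with 104 in replicate 1 and 114 in replicate 2, and a summit at -186 bp. All 4 genes lie on the X chromosome, where 7.29% of protein-coding genes were bound. The promoter windows of meg-3 and meg-4 were alike in 72.0% of bases in a global alignment. Among the 9 pairs of related genes aligned, that was second to puf-3 and puf-11 (80.7%), and the other 7 ran from 49.6% to 63.9%. All 71 runs of 31 bases in the summit window of each gene occur once in the genome. The ranked list of replicate 2 held a peak at -263 bp from meg-1 with a score of 127, and no ranked list held one for meg-2.

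The P granule scaffold and helicase genes had 2 of 8 bound in the conservative set (9.68% of all genes), 1 of 8 in replicate 1 (6.91%) and 4 of 8 in replicate 2 (13.3%). The scaffold gene pgl-3 had a signal of 118 at -463 bp. Its replicate summits were 93 bp apart, the widest gap of the 11 genes in both lists (53.3 in replicate 1 at -386 bp and 67.8 in replicate 2 at -479 bp). A second conservative peak of pgl-3 lay at -262 bp with a signal of 17.8. The gene glh-2, 1 of 4 genes for GLH helicases related to Vasa, had a summit at 2 bp, in its 5′ UTR and in a window shared with C55B7.11. Its signal was 198 in the conservative set and 159 in replicate 2.

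The other 6 genes of this role each had a peak in the ranked list over both replicates, below the threshold. For pgl-1, which encodes the founding P granule scaffold protein, that peak (signal 75.7, score 686) lay at -469 bp. In the authors' other thresholded set pgl-1 was bound. For glh-1 it had a signal of 87.7 and a score of 649, and for pgl-2 and glh-3 the scores were 191 and 87. Replicate 2's own list bound glh-4 (signal 80.5) and deps-1 (56.2), whose protein keeps PGL and GLH proteins in granules. In the ranked list over both replicates these 2 genes scored 88 and 129.

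Of the PUF and Nanos genes, which encode translational repressors that bind 3′ ends of messenger RNAs, 2 of 6 were bound in the conservative set. Replicate 1's list bound 1 of 6 and replicate 2's list 1 of 6. The shares of all genes in these 3 lists were 9.68%, 6.91% and 13.3%. The gene puf-11 had a signal of 260 (74.8 in replicate 1 and 190 in replicate 2) at -164 bp, and the replicate summits were 1 bp apart. The gene puf-3, its close paralogue, had the lowest signal of the bound genes (96.9) and the lowest score (841). It lay in an intron of the neighbouring gene afmd-2, whose window held the summit as well. It was absent from both replicates' lists and from the authors' other thresholded set, and in the replicates' ranked lists its scores were 581 and 132. Of 71 runs of 31 bases in each summit window, 71 occur once in the genome at puf-3 and 69 at puf-11. Among the rest, nos-2, puf-5 and puf-8 had ranked peaks with scores of 542, 459 and 311, and nos-1 had no peak in any ranked list.

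None of the 4 genes for stored messenger RNA and poly(A) tail control was bound in the conservative set (9.68% of all genes), although each had a ranked peak. Replicate 1's list bound 0 of 4 (6.91% of all genes) and replicate 2's list 1 of 4 (13.3%). The gene gld-2 encodes a cytoplasmic poly(A) polymerase and gld-3 its KH domain partner. In replicate 2's list gld-2 was bound with a signal of 61.3 at -66 bp. In the ranked list over both replicates, the peak of highest signal scored 487 for gld-2, 220 for car-1, 179 for gld-3 and 103 for cgh-1. The genes car-1 and cgh-1 encode an Sm-like protein and a DEAD-box helicase of storage granules. A conservative peak with a signal of 566 (rank 794) lay at -789 bp from cgh-1, outside the window, and it bound the gene when the window was widened to 1000 bp upstream.

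The egg surface and yolk uptake genes had 2 of 5 bound in the conservative set (9.68% of all genes), 2 of 5 in replicate 1 (6.91%) and 5 of 5 in replicate 2 (13.3%), whose list is the longest of these. The gene egg-1 encodes an oocyte surface protein needed for fertilisation, with LDL receptor repeats. Its peak had a signal of 217 at -152 bp (73.3 in replicate 1 and 158 in replicate 2), and the replicate summits were 25 bp apart. The yolk receptor gene rme-2 had a signal of 220 at -70 bp (77.5 in replicate 1 and 140 in replicate 2). For egg-2, the paralogue of egg-1, egg-3, which acts in the oocyte-to-embryo transition, and the eggshell gene cbd-1, replicate 2's signals were 63.2, 62.7 and 75.5. In the ranked list over both replicates, the peak of highest signal scored 750 for cbd-1, 384 for egg-3 and 206 for egg-2. Among such peaks of the genes that were not bound, 750 was the highest score.

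Of the 4 MES genes, mes-2 and mes-3 were bound in the conservative set (9.68% of all genes). Replicate 1's list bound 1 of 4 (6.91% of all genes) and replicate 2's list 2 of 4 (13.3%). MES-2, MES-3 and MES-6 form a complex that methylates histone H3 on lysine 27, and MES-4 methylates histone H3 on lysine 36. The gene mes-3 had a signal of 278 at -175 bp, with 97.4 in replicate 1 and 179 in replicate 2. The peak of mes-2 (signal 118, score 981) lay at -167 bp and was in neither replicate's own list, where the ranked scores were 541 and 328. The gene mes-6 was bound in replicate 2 alone, with a signal of 106 at -20 bp. Its ranked peak over both replicates had a signal of 130 and a score of 502, so that signal was above that of puf-3 while its score was below the threshold. For mes-4 the ranked peak of highest signal over both replicates had a signal of 9.47 and a score of 45.

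**Figure D3:**
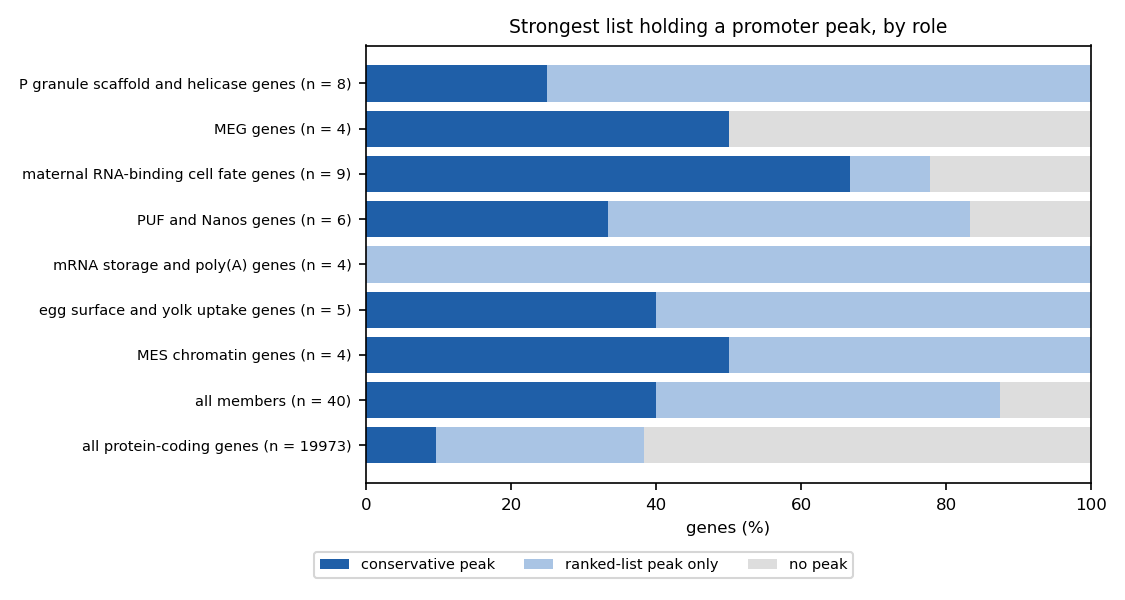
Percent of the genes of each role (horizontal bars, n in each label) with a promoter peak in the conservative set (dark), in the ranked list over both replicates only (light) or in neither (grey), with all members and all protein-coding genes below. The 24 genes without a conservative peak comprise 19 with a ranked peak and 5 without.

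Of the 40 genes, 19 (47.5%) had no conservative peak but a peak in the ranked list over both replicates, against 28.6% of all protein-coding genes. With the 16 bound genes included, 35 of 40 genes (87.5%) had a summit in the window in that list, against a background of 38.3%. In each replicate's ranked list, 34 of 40 genes had a summit there, against 30.4% of all genes in replicate 1 and 31.8% in replicate 2. Only meg-2, mex-6 and nos-1 had none in any of these 3 lists, where 53.9% of all protein-coding genes had none. The peaks of highest signal of the 19 genes had signals from 9.47 (mes-4) to 130 (mes-6) and scores from 45 to 750.

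**Figure D4:**
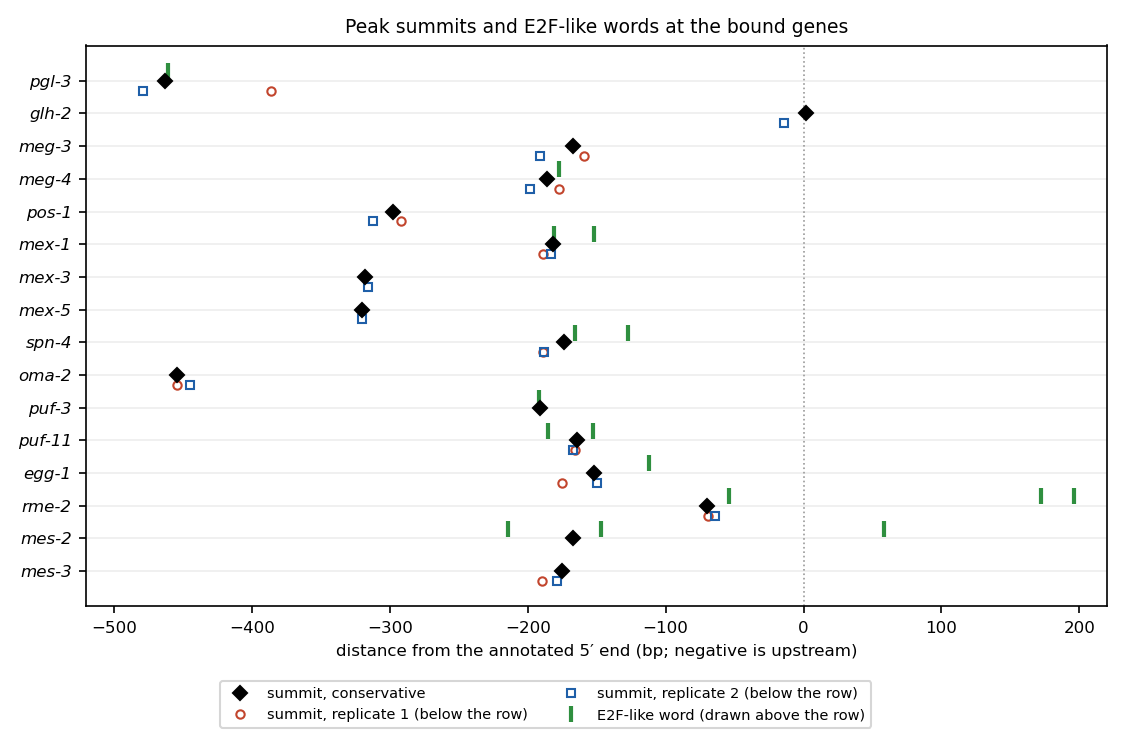
Distance of each summit from the annotated 5′ end (horizontal axis, bp, negative upstream) for the 16 bound genes, with the conservative summit (black diamond), the summits of replicate 1 (red circle) and replicate 2 (blue square) and the centres of E2F-like words (green tick above the row). The pair of words of rme-2 to the right of 0 lie in the window of its other annotated 5′ end. Summits of 9 genes lie between -200 and -150 bp, and those of pgl-3 and oma-2 lie farthest upstream, at -463 and -454 bp.

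The summits were spread over most of the window. The median distance was -178.5 bp over the 16 genes, and -192.5 bp over all bound genes. The span ran from -463 bp (pgl-3) to 2 bp (glh-2). Of the 6 bound cell fate genes, pos-1, mex-3, mex-5 and oma-2 had summits at -298 bp or farther upstream, and mex-1 and spn-4 had theirs at -182 and -174 bp. Between -200 and -150 bp, a range chosen after the values were seen, lay 9 of the 16 summits (56.2%), against 15.2% over all bound genes. These were the summits of egg-1, meg-3, meg-4, mes-2, mes-3, mex-1, puf-3, puf-11 and spn-4. For the 11 genes in both replicates' lists, the replicate summits differed by a median of 11 bp (1 to 93 bp). Over all 1218 such genes the median was 11.0 bp and the range 0 to 7775 bp. Annotated 5′ ends of many worm genes mark the site where a leader RNA is spliced on, so the true start of transcription can lie farther upstream.

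Short GC-rich words lay close to many of these summits. A count of either GCGGGAA or GCGCGAA, on either strand, was added after the sequences were seen. At 9 of 16 genes (56.2%) a word occurred within 50 bp of the summit. The same held for 7.73% of all 1682 promoter summits (130) and for 7.26% of the 1666 summits of other genes. Each word alone was found at 6 of 16 genes, against 3.27% of all promoter summits for GCGGGAA and 4.76% for GCGCGAA. Both words occurred at mex-1, puf-11 and spn-4. The 9 genes include puf-3 and puf-11, whose promoter windows were alike in 80.7% of bases. They also include mes-2, which, like puf-3, was in neither replicate's own list. In these 9 windows the nearest word had its centre a median of 9 bp from the summit (1 to 40 bp), and at mex-1 and puf-3 it was 1 bp away. Over the 241 promoter summits with a word centre within 150 bp the median was 43 bp. The other genes of the 9 are shown next, for their words.
egg-1 (chrIII:5727978-5728078, plus strand): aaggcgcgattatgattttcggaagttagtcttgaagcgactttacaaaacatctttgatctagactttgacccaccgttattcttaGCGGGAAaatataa
spn-4 (chrV:6785027-6785127, minus strand): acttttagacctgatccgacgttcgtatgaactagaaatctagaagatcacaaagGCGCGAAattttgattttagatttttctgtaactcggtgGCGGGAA
pgl-3 (chrV:4755466-4755566, plus strand): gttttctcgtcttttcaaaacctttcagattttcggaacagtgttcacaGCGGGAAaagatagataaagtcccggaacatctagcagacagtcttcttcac
mes-2 (chrII:14383756-14383856, plus strand): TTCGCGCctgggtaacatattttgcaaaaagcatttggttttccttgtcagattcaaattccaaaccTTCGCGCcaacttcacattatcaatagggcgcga
puf-3 (chrIV:13512303-13512403, minus strand): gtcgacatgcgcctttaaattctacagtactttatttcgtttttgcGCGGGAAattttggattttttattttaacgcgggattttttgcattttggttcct

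The other motifs, also searched on both strands, occurred at 0 to 2 of the 16 summits each, too few to set apart from their shares over all promoter summits. The TCF and SOX-like word ACAAAG occurred at 1 of 16 (spn-4) against 4.04% of all promoter summits. The SOX-like word AACAAT occurred at 0 of 16 (7.49% of all), the E-box CACGTG at 0 of 16 (2.79%) and the GATA word GATAAG at 0 of 16 (3.45%). The splice acceptor-like word TTTCAG occurred at 2 of 16 (pgl-3 and pos-1) against 7.97%. The mean GC content of the 101 bp windows was 42.0% ± 6.16 (SD, n = 16 summits) for these genes. It was 47.6% ± 7.53 (SD, n = 1682 summits) over all promoter summits and 35.4% in the nuclear genome. A match is a run of letters and does not show that a factor was there.

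**Figure D5:**
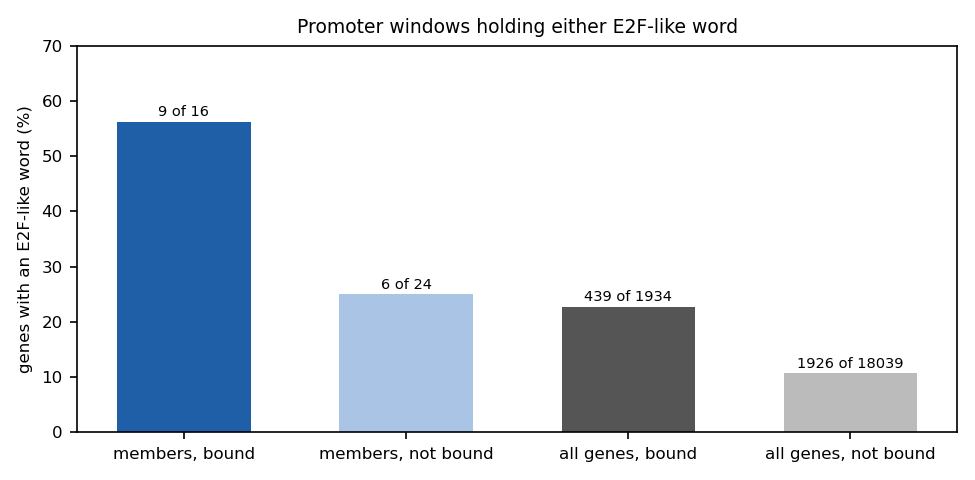
Percent of genes whose promoter window (500 bp upstream to 100 bp downstream of any 5′ end) holds either E2F-like word (vertical axis from 0), for bound and unbound genes among the 40 and among all protein-coding genes. The count is printed above each bar, from 9 of 16 bound genes of the list to 1926 of 18039 unbound genes.

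The words were also read over the whole promoter window of every protein-coding gene, whether bound or not. Of the 16 bound genes of the list 9 held a word (56.2%), and of the 24 others 6 did (25%), namely glh-4, puf-5, gld-2, egg-2, cbd-1 and mes-4. Over all genes the shares were 22.7% of 1934 bound and 10.7% of 18039 unbound genes, and 11.8% of all. Replicate 2's own list bound 7 of the 24 others. Its share of all protein-coding genes, 13.3%, also counts genes bound in the conservative set, so it is not a matched share. The 7 were glh-4, gld-2, egg-2 and cbd-1, each with a word, and deps-1, egg-3 and mes-6, each without. Of the 16 bound genes, those without either word were glh-2, meg-3, pos-1, mex-3, mex-5, oma-2 and mes-3.

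Shared promoter windows and nearby small RNA genes were counted as well. The summit of 5 of the 16 bound genes (31.2%) also lay in the window of another protein-coding gene, against 34.6% of all bound genes. No summit of the 16 lay within 200 bp of a tRNA, snRNA or snoRNA gene, against 4.86% of all bound genes. At that share, finding none among 16 genes does not set them apart. The genes lie on all 6 nuclear chromosomes, with 3 of 9 bound on I (14.2% of all protein-coding genes there), 2 of 9 on II (9.31%) and 1 of 5 on III (13.8%). On IV 4 of 8 were bound (9.75%), on V 4 of 5 (6.43%) and on X 2 of 4 (7.29%).

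Of 67 other genes of germ granules, germline RNA control, eggshell and germline chromatin, 20 (29.9%) were bound in the conservative set, against 9.68% of all genes. Replicate 1's own list bound 15 of the 67, against 6.91% of all genes, and replicate 2's list bound 28, against 13.3%. Other perinuclear granule and small RNA genes had 3 of 13, namely npp-10 (a nuclear pore gene, signal 1694), ego-1 (an RNA-dependent RNA polymerase gene, 149) and hrde-1 (a nuclear Argonaute gene, 97.9). The summits of npp-10 and hrde-1 also lay in the windows of cyk-3 and C16C10.13. Other RNA regulators had 6 of 25, led by the P body gene patr-1 (1046, in a window shared with dna-2), puf-9 (814) and the ataxin-2 gene atx-2 (451). Other CCCH zinc finger genes had 2 of 6, ccch-1 (372) and gla-3 (339).

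Other eggshell, egg activation and yolk genes had 6 of 18 bound in the conservative set, where 9.68% of all genes were bound. The chondroitin proteoglycan genes cpg-1 and cpg-2 of the eggshell had signals of 333 and 251, and egg-4, for a partner of EGG-3, had 256. Other germline chromatin genes had 3 of 5, with mrg-1 (237, in a window shared with spcs-2), met-1 (229) and set-2 (157), of which the last 2 encode histone methyltransferases. Each of the named genes of these 5 lists was bound in both replicates' lists except ego-1, which was absent from replicate 2's, and hrde-1, which was absent from replicate 1's.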

How the data were processed

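The values are peak lists from 2 ChIP-seq samples, deposited by the authors in ce11 coordinates, per the labels. No peak caller, aligner or depth is named in the sources used here. Each deposited peak has a score from the irreproducible discovery rate (IDR), capped at 1000, a signal value on an unstated scale, and a summit offset. The authors' ranked lists also hold a −log10 IDR. At the lowest conservative score (830) it was 2.00, an IDR of 0.01. The conservative set was deposited for the series, with no single sample named. The labels do not say that the replicates were separate cultures.

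Summits were assigned to protein-coding genes of Ensembl release 115 by the promoter window, with Python 3.11.15, numpy 2.4.6 and Biopython 1.88. Sequence came from the RefSeq genome of assembly WBcel235 (ce11), whose chromosomes hold every deposited peak. Assignment was tested on simulated summits. Promoter windows of related genes were aligned globally with mismatches unpenalised, which raises the identity of unrelated sequence. The members, roles, lists and motifs were chosen with earlier results of these data known, and the count of either E2F-like word, with its windows, was added after the sequences were seen. All members are named, as are up to 3 bound genes of highest signal per other list and any gene that shares a member's summit. No test between groups was possible, so counts stand beside those of all genes. Alternatives changed the peak set, window, 5′ ends, assignment and sequence window. Control libraries were not used here.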

Additional observations from a re-analysis of the deposited data

How the results depend on the processing

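With 1 group of 2 samples there was no test, so each value below is a count or a median under another setting, and no paired analysis was possible because only 1 group was sampled. The count of bound genes was 16. It was 11 with replicate 1's own list in place of the conservative set and 21 with replicate 2's. Below, a replicate left out means that the other replicate's own list was used in this way. The count was 5 with the 2074 peaks of highest signal and 11 to 23 under the other settings.

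By role, the P granule scaffold and helicase genes (2 bound) had 5 in the other thresholded set, 1 to 4 with a replicate left out, 0 with these strongest peaks, and 1 with the narrow window or with overlap in both replicates. The MEG genes (2) had 1 with the peaks of highest signal. The cell fate genes (6) had 2 with those peaks and 2 with the narrow window. The PUF and Nanos genes (2) had 1 in the other thresholded set, 1 with either replicate left out, 1 with overlap in both replicates and 1 with those strongest peaks. The stored messenger RNA and poly(A) genes (0) had 1 in the other thresholded set, 1 with the wide window and 0 to 1 with a replicate left out. The egg surface and yolk genes (2) had 5 in the other thresholded set, 2 to 5 with a replicate left out and 0 with the peaks of highest signal. The MES genes (2) had 1 with those peaks, 1 with overlap in both replicates and 1 to 2 with a replicate left out. The 67 other pathway genes (20) had 10 with the peaks of highest signal. The share of all protein-coding genes changed with the setting, so each count stands against its own share. It was 9.68% in the conservative set and 13.7% in the other thresholded set. Replicate 1's own list gave 6.91% and replicate 2's gave 13.3%. The 2074 strongest peaks gave 5.19%, the narrow window 6.07%, the wide window 12.7% and overlap in both replicates 6.08%.

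The median rank was 56.0%, against 46.6% over all bound genes. In the other thresholded set it was 52.3% (46.7% over all bound genes). Replicate 1's list alone gave 61.3% (45.5%) and replicate 2's list alone 60.2% (48.8%). The narrow window gave 53.1% (48.4%). The wide window, the nearest 5′ end and the outermost 5′ end each gave 53.7% (45.6%, 47.0% and 47.4%). Overlap in both replicates gave 52.7% (27.9%). The strongest peaks gave 42.2% (21.9%). Their ranks were those of the full list, so a fall was fixed in advance. The median summit distance ran from -189 to -183 bp with a replicate left out. Within 150 bp of the summit, the word ACAAAG was found at 3 of 16 genes (14.6% of all promoter summits) and the word AACAAT at 3 (30.9%). The word GATAAG was found at 3 (9.63%) and the word TTTCAG at 6 (38.5%). Either E2F-like word was found at 9 genes within 50 bp (7.73% of all promoter summits) and at 9 within 150 bp (14.3%). Apart from the median rank with the strongest peaks, the causes of these shifts were not tested.

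The lists hold no read totals, so depth and its limits are unknown. For a gene without a listed peak, binding was not detectable in these lists, which does not show that it is absent.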
